A study of Mus musculus with 48 samples.

Results

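The fast and developmental myosin heavy chain genes lie side by side on mouse chromosome 11. The cluster was taken as its 6 named genes, Myh3, Myh2, Myh1, Myh4, Myh8 and Myh13, and all 6 were found among the 27179 genes of the count table and passed the filter on low counts in every comparison. Levels are given as CPM, read counts scaled to the size of the library, and as ratios between neighbouring genes of the map. The samples were soleus, vastus intermedius, gastrocnemius and vastus lateralis of male FVB/NJ mice, an inbred strain, taken from adults and from late embryos (E18.5). There were 6 animals at each stage, and each gave 1 library of each muscle. Postnatal day 56 is the adult age in the design text and 3 to 4 months that in the growth protocol, so the stage is called adult. The first pair compared, soleus and gastrocnemius, is of the shank, the vastus pair is of the thigh, and soleus and vastus intermedius were chosen by the submitters as the muscles rich in slow fibres. RNA came from whole muscles, in which fewer fibres of a type and less RNA per fibre cannot be told apart.

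Myosin heavy chains are the motor proteins of the thick filament, and the one a fibre makes largely sets how fast it contracts. Myh3 (embryonic) and Myh8 (perinatal) encode the chains of developing fibres, which in rodents give way to the adult chains after birth. Myh2 (type IIa), Myh1 (type IIx) and Myh4 (type IIb) encode the fast chains of adult fibres, in order of increasing speed, and Myh13 encodes a very fast chain known mainly from extraocular and laryngeal muscle. Slow fibres use Myh7, which lies on another chromosome. In mouse an enhancer between Myh3 and Myh2 is known to act on Myh2, Myh1 and Myh4, and the long non-coding RNA linc-Myh (2310065F04Rik) is made beside it.

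On GRCm38.p6, the build of the counts, all 6 genes lie on the plus strand. Their spans are chr11:67078273-67102291 for Myh3 (Entrez 17883), chr11:67171027-67197517 for Myh2 (17882), chr11:67200102-67224577 for Myh1 (17879), chr11:67237812-67260447 for Myh4 (17884), chr11:67277124-67308634 for Myh8 (17885) and chr11:67327103-67371587 for Myh13 (544791). The cluster spans 293.3 kb. The spaces between neighbours, in map order, are 68735, 2584, 13234, 16676 and 18468 bases, so Myh2 and Myh1 stand closest and Myh3 stands apart. The linc-Myh gene (Entrez 74184) lies at chr11:67112461-67120080, inside the widest space. The 250 bases before the start of 4 of the genes are shown because they share runs of letters that no other promoter holds, and because these genes are those set against each other at E18.5 (Myh2, Myh4 and Myh8) or the adult fast set (Myh2, Myh1 and Myh4). Capitals mark a 14-base run shared by all 4 (TTCTAATTATATCC), a 15-base run shared by 3 of them (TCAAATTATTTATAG) and TATAAA, the TATA box letters. The sequences are from RefSeq on GRCm38.p6, plus strand, 5′ to 3′.
Myh2, chr11:67170777-67171026: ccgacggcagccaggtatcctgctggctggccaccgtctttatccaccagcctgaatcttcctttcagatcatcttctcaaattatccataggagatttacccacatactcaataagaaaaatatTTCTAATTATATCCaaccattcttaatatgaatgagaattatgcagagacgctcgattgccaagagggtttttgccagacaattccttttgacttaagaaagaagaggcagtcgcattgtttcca
Myh1, chr11:67199852-67200101: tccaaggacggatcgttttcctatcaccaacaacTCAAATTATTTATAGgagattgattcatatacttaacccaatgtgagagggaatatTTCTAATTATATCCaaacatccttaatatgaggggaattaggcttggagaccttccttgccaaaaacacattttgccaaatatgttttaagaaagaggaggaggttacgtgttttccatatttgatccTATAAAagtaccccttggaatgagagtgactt
Myh4, chr11:67237562-67237811: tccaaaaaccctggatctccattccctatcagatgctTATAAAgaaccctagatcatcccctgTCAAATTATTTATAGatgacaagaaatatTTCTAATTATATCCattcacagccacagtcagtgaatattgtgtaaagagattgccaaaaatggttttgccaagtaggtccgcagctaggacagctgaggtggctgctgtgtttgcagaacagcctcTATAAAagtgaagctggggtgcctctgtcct
Myh8, chr11:67276874-67277123: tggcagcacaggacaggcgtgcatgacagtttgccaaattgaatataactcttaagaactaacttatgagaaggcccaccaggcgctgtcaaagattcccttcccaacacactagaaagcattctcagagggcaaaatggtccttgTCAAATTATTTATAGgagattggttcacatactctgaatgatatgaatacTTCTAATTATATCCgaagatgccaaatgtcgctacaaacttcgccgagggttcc

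The 14-base run starts 125, 160, 158 and 54 bases before the start of Myh2, Myh1, Myh4 and Myh8, in that order of genes, and was found in 4 of 27025 promoter windows of that length (0.0148%), those of these 4 genes. The 15-base run was found in 3 of 27025 windows (0.0111%), those of Myh1, Myh4 and Myh8. Neither run was in the windows of Myh3 and Myh13, which are the members with the least similar coding sequence. The search for shared runs was added after the sequences were seen. Motifs were searched on both strands. TATAAA, present in 13.0% of all windows, was found 29 bases before the start of Myh3, 32 before that of Myh1 and 31 before that of Myh4, and its other matches in Myh1, Myh4 and Myh8 include those read on the minus strand within the 15-base run. It had no match in Myh2 and Myh13. The RefSeq window of Myh3 ends at base 67078299, inside the gene span given above, so positions in it are counted from a start that lies downstream of the first base of that span, whereas the windows of the other 5 genes end just before their spans. The MEF2 motif, present in 3.01% of windows, matched only within the 15-base run, where it overlaps TATAAA. The E-box letters CANNTG, bound by MyoD and its relatives and present in 66.0% of windows, were found once each in Myh3 and Myh8 and 2 times each in Myh4 and Myh13. GGAAA, the NFAT core and present in 55.6% of windows, was found 3 times in Myh3, once in Myh2 and 2 times in Myh1. The CArG motif (1.40% of windows) was found in Myh4 and TCAGGTT, the MEF3 letters bound by sine oculis homeobox factors (3.49% of windows), in none of the 6. A match is a description of letters and not of binding.

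The coding sequences of the adult fast genes are close copies. Identity was 91.1% between Myh2 and Myh1, 90.2% between Myh1 and Myh4, and 88.2% between Myh2 and Myh4, and Myh8 was 87.9% to 89.3% identical to these 3 genes. Myh3 and Myh13 were 77.6% to 81.1% identical to the other members. The longest runs of identical bases were 268 between Myh2 and Myh1 and 213 between Myh8 and Myh13, and Myh4 and Myh8 shared one of 164. Of all 50-base words of the coding sequence, 28.1% of Myh2, 27.9% of Myh1, 22.7% of Myh8, 19.6% of Myh4, 8.81% of Myh13 and 4.99% of Myh3 also occurred in another member, Myh6 or Myh7. Reads that lie in such words can be given to the wrong gene, the sources used here do not say how the counting treated them, and their part in the counts was not tested. Low levels of a member beside a high level of a close copy are therefore uncertain. The strand setting is not given either, so reads of antisense RNA, such as that of Myhas at the 3′ end of Myh1, could not be told apart. The linc-Myh transcripts share none of their 2909 25-base words with these coding sequences.

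Total counts were 14935541 to 32383982 per library, and 3 counts, the limit that a count of 0 allows, were 0.0926 to 0.201 CPM on total counts. Skeletal muscle markers were high throughout, with Acta1 at 5795 to 49864 CPM and Ckm at 1056 to 20067 CPM. The 6 genes took 1.09% to 9.43% of the counts of an adult library and 1.37% to 3.85% of an E18.5 library. The animals of a stage are called collections A to F after the date tags of the libraries, and letters do not link the stages. Libraries of 3 collections stand apart from their labels. In collection B, the library labelled adult vastus intermedius has an embryonic profile and was left out, which leaves 47 libraries. That profile includes the members themselves, with 8923 CPM of Myh3 and 15578 CPM of Myh8. In the E18.5 thigh, of 12 partners of slow fibres 12, 1, 10, 11, 12 and 3 were higher in the library labelled vastus intermedius than in the one labelled vastus lateralis of collections A to F. In collection B, Myh7 was 10.5 CPM in the library labelled E18.5 vastus intermedius and 1158 CPM in the one labelled E18.5 vastus lateralis, and in collection F 42.0 and 140 CPM, opposite to the other 4 collections. E18.5 thigh results are therefore given with and without B and F.

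**Figure D1:**
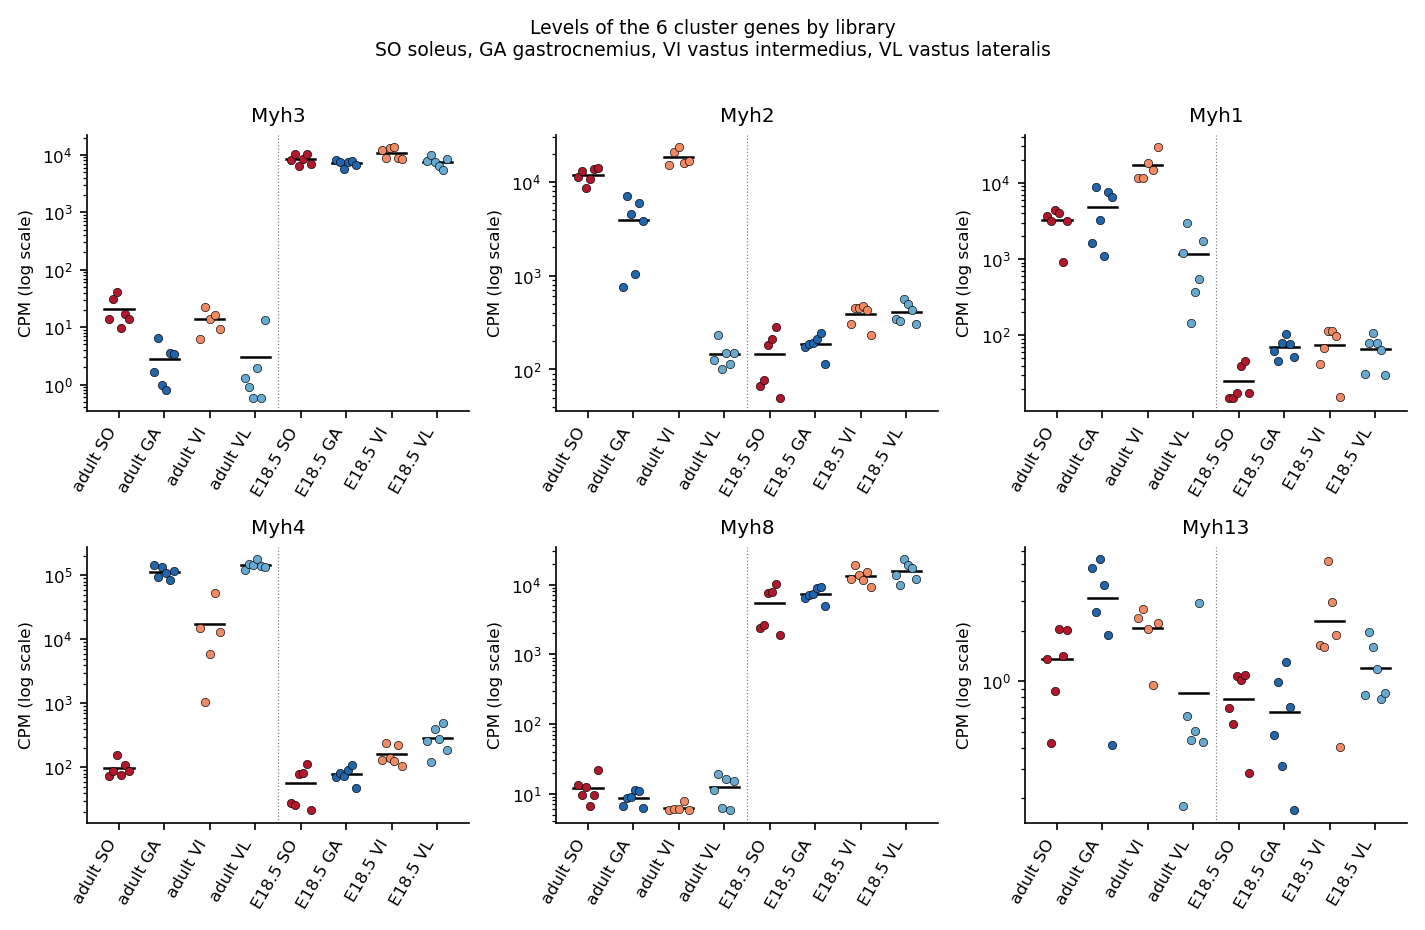
Levels of the 6 cluster genes by library. The y axis is TMM-scaled CPM on a log scale, the x axis the 8 groups of stage and muscle, points are libraries and short horizontal lines the group means. Myh3 and Myh8 sit at 1879 CPM or more in every E18.5 library and at 41.0 CPM or less in every adult library plotted, and Myh13 stays at 5.34 CPM or less throughout.

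The developmental genes dominated before birth and were near the bottom in adults. Myh3 reached 6270, 8279 and 10496 CPM (lowest, median and highest) in E18.5 soleus, 8420, 10611 and 13440 CPM in E18.5 vastus intermedius, 5573, 7397 and 8216 CPM in E18.5 gastrocnemius, and 5502, 7721 and 9808 CPM in E18.5 vastus lateralis. Adult Myh3 was 9.67, 15.3 and 41.0 CPM in soleus, 0.794, 2.55 and 6.33 CPM in gastrocnemius, and 0.576, 1.11 and 13.1 CPM in vastus lateralis. The 5 adult vastus intermedius libraries held 6.19, 22.8, 13.9, 16.3 and 9.26 CPM of Myh3 in collections A, C, D, E and F. No adult library overlapped an E18.5 one, and the adult muscles with slow fibres were above their partners except for the 1 vastus lateralis library at 13.1 CPM. Myh8 was 1879, 5167 and 10291 CPM in E18.5 soleus, 9180, 13010 and 18930 CPM in E18.5 vastus intermedius, 4892, 7264 and 9224 CPM in E18.5 gastrocnemius, and 9887, 15681 and 23013 CPM in E18.5 vastus lateralis. In adults Myh8 averaged 12.2 ± 5.22 CPM in soleus, 8.78 ± 2.11 CPM in gastrocnemius and 12.3 ± 5.43 CPM in vastus lateralis (SD, n = 6 each) and 6.27 ± 0.939 CPM in vastus intermedius (n = 5). Adult Myh8 ran from 5.75 to 21.7 CPM over the libraries of all 4 muscles.

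The adult fast genes parted the adult muscles. Myh2 was 8487, 12061 and 14158 CPM in adult soleus, 748, 4191 and 7113 CPM in adult gastrocnemius and only 102, 139 and 232 CPM in adult vastus lateralis. In adult vastus intermedius it was 14951, 20980, 23234, 15751 and 16587 CPM in collections A, C, D, E and F. These 4 adult groups did not overlap one another. Myh1 was 907, 3455 and 4383 CPM in adult soleus, 1086, 4876 and 8789 CPM in adult gastrocnemius and 147, 878 and 2996 CPM in adult vastus lateralis. In adult vastus intermedius it was 11585, 11426, 18280, 14531 and 29060 CPM in A, C, D, E and F, above every library of the other adult muscles. Myh4 was 73.9, 89.2 and 157 CPM in adult soleus, 84926, 112873 and 145557 CPM in adult gastrocnemius and 120239, 143470 and 176984 CPM in adult vastus lateralis. Adult vastus intermedius held 14949, 1069, 5877, 52395 and 12838 CPM of Myh4 in A, C, D, E and F, between soleus and the fast-biased muscles and with no overlap with either. At E18.5 the group means of these 3 genes were 145 to 410 CPM for Myh2, 25.4 to 75.9 CPM for Myh1 and 57.5 to 290 CPM for Myh4. Myh13 averaged 0.657 to 3.13 CPM in all 8 groups and had between 3 and 164 counts in a library.

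Between groups that are neighbours in the order of mean levels, 42 exact permutation tests were made (7 for each gene, two-sided, adjusted over all 42; the smallest possible p is 0.00216). Of these, 13 passed an adjusted p of 0.05 and 9 were between groups that did not overlap. No share over all genes was computed for such steps, and the neighbours were picked by the means of the same data. In the fitted comparisons below, 76% to 82.2% of all genes passed with age. Between the muscles of a pair 53.5% (shank) and 52.2% (thigh) passed in adults, and 0.286% and 0.0317% at E18.5. Myh3 ran, from high to low, E18.5 vastus intermedius, soleus, vastus lateralis and gastrocnemius, then adult soleus, vastus intermedius, vastus lateralis and gastrocnemius, and 2 of its 7 steps passed, that from E18.5 gastrocnemius to adult soleus and that from adult vastus intermedius to adult vastus lateralis. Myh8 ran E18.5 vastus lateralis, vastus intermedius, gastrocnemius and soleus, then adult vastus lateralis, soleus, gastrocnemius and vastus intermedius. Its 2 passing steps were from E18.5 vastus intermedius to E18.5 gastrocnemius and from E18.5 soleus to adult vastus lateralis. Myh2 ran adult vastus intermedius, soleus and gastrocnemius, then E18.5 vastus lateralis, vastus intermedius and gastrocnemius, then adult vastus lateralis and last E18.5 soleus. Its 4 passing steps were the first 3 and that from E18.5 vastus intermedius to E18.5 gastrocnemius. Adult vastus lateralis thus stood among the embryonic muscles for Myh2, and its steps to E18.5 gastrocnemius above it and E18.5 soleus below it did not pass. Myh1 ran adult vastus intermedius, gastrocnemius, soleus and vastus lateralis, then E18.5 vastus intermedius, gastrocnemius, vastus lateralis and soleus, with 3 passing steps, the first, that between the stages and the last. Myh4 ran adult vastus lateralis, gastrocnemius and vastus intermedius, then E18.5 vastus lateralis and vastus intermedius, adult soleus, and E18.5 gastrocnemius and soleus. Its 2 passing steps were those on either side of adult vastus intermedius, and the steps from adult soleus to its embryonic neighbours on either side did not pass. No step passed for Myh13.

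**Figure D2:**
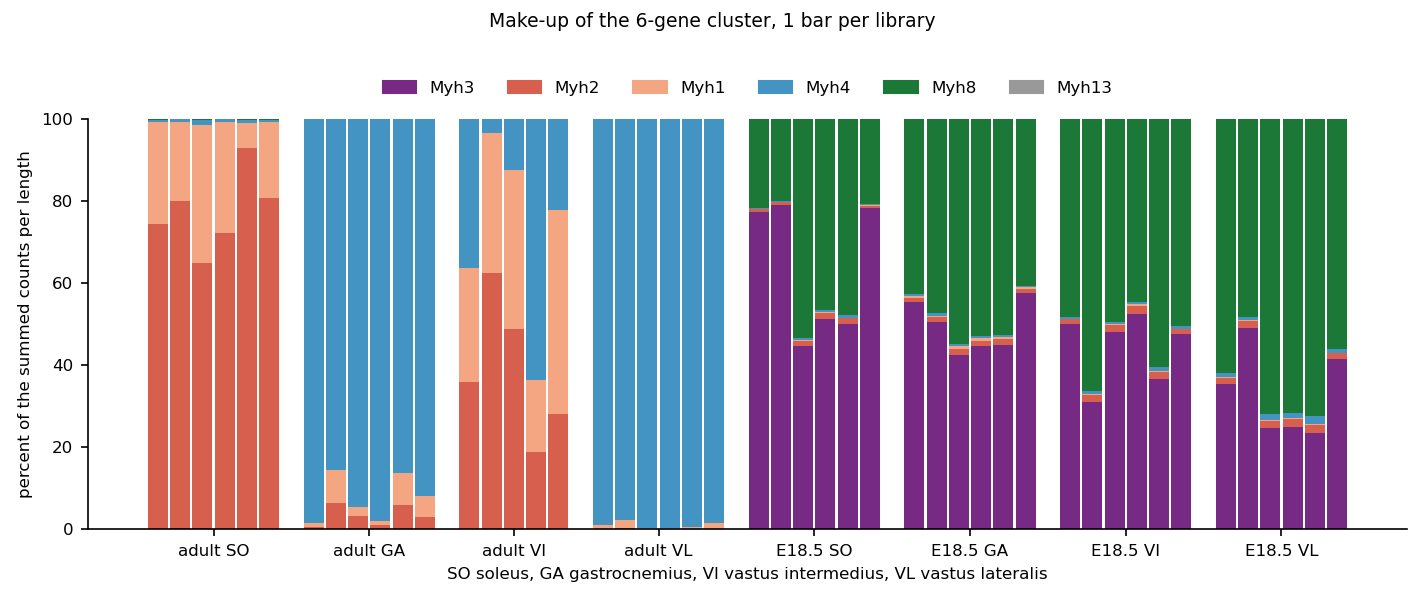
Share of each gene in the summed level of the 6 genes, as percent of the counts per length (the exon length given in the count table), by library. Each bar is 1 library, grouped by stage and muscle. Myh4 fills 92.5% of the cluster in adult gastrocnemius and 99.1% in adult vastus lateralis on average, while adult vastus intermedius is split among Myh2, Myh1 and Myh4.

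Per kb of the exon length given in the count table, the cluster had a different leading gene in different adult muscles and the same leading pair in all E18.5 muscles. Myh2 held 77.4% ± 9.56 and Myh1 21.7% ± 9.41 of the summed level in adult soleus (SD, n = 6), where Myh4 held 0.67% ± 0.28. Adult vastus intermedius had 38.8% ± 17.1 Myh2, 33.7% ± 12.01 Myh1 and 27.5% ± 23.5 Myh4 (n = 5), so no single gene led in all its libraries. Myh4 held 92.5% ± 5.61 in adult gastrocnemius and 99.1% ± 0.75 in adult vastus lateralis (n = 6 each). In all 4 E18.5 muscles Myh3 and Myh8 together held nearly everything, Myh3 between 33.2% ± 10.6 in vastus lateralis and 63.5% ± 16.4 in soleus, and Myh8 between 34.98% ± 15.8 in soleus and 63.7% ± 10.1 in vastus lateralis (n = 6 each). The soleus means lay between sets of libraries. Myh3 held 77.4% to 79.2% in E18.5 soleus of collections A, B and F and 44.7% to 51.4% in C, D and E. The summed level was 2509 ± 245 CPM per kb in adult soleus, 8729 ± 3174 in adult vastus intermedius, 20441 ± 3328 in adult gastrocnemius and 24265 ± 3107 in adult vastus lateralis. At E18.5 it was 2329 ± 715 in soleus, 2448 ± 336 in gastrocnemius, 4107 ± 610 in vastus intermedius and 3977 ± 688 in vastus lateralis. The adult soleus sum is the lowest of the adult muscles, and soleus is also where Myh7, outside the cluster, was highest at 14936, 21363 and 28376 CPM (lowest, median and highest).

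Adult soleus was compared with adult gastrocnemius to see how slow-biased and fast-biased shank muscles differ. Myh2 and Myh3 were higher and Myh4 was lower in soleus, while Myh1 and Myh8 did not pass. Myh4 carried by far the largest log2 fold change of the members, -10.14 ± 0.69 (SE, adjusted p = 3.11e-11, edgeR's quasi-likelihood test), and was lower in 6 of 6 collections. Myh3 differed by 2.92 ± 0.64 and Myh2 by 1.65 ± 0.37, both higher in 6 of 6 collections. Myh1 differed by -0.55 ± 0.55 (adjusted p = 0.409), higher in soleus in 3 of 6 collections. Thus 3 of the 6 members passed, 2 higher and 1 lower, where 53.5% of the 14304 genes tested passed (27.7% higher and 25.9% lower). Myh8 differed by 0.51 ± 0.27 (adjusted p = 0.118), and passed when libraries were scaled to total counts (0.87, adjusted p = 0.00589) or without adult collection D (0.72, adjusted p = 0.0444). Myh13, at few counts, differed by -1.15 ± 0.53 (adjusted p = 0.0694) and passed with DESeq2 (adjusted p = 0.048) and without adult collection E or F.

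In the adult thigh, vastus intermedius was set against vastus lateralis, and Myh2, Myh1 and Myh3 were higher and Myh4 and Myh8 lower. Myh2 differed by 7.00 ± 0.47 (adjusted p = 2.17e-10) and Myh1 by 3.90 ± 0.63 (adjusted p = 1.54e-05), both higher in vastus intermedius in 5 of 5 collections. Myh3 was higher as well, by 2.22 ± 0.65 and in 4 of 5 collections. Myh4 was lower by a log2 fold change of -3.03 ± 0.54 (adjusted p = 5.75e-05) and in 5 of 5 collections. Myh8 was also lower, by -0.94 ± 0.29 (adjusted p = 0.0100), though higher in 1 of 5 collections. It did not pass when libraries were scaled to total counts (-0.63, adjusted p = 0.0559). Myh8 had 96 to 109 counts in adult vastus intermedius libraries and 91 to 333 in adult vastus lateralis ones. Myh4, a close copy, was far higher in both, and the part of shared reads was not tested. Here 5 of the 6 members passed, 3 higher and 2 lower, with a background of 52.2% of 14304 genes (27.9% higher and 24.3% lower). Myh13 differed by 1.30 ± 0.58 (adjusted p = 0.0637). It passed without adult collection E, whose vastus lateralis library held 2.94 CPM against 0.179 to 0.622 CPM in the other 5 (2.46, adjusted p = 0.00116). It also passed with DESeq2 and on total counts. Scaling to total counts moved the median log2 fold change of all genes to 0.46 (shank) and 0.35 (thigh), against 0.08 and 0.07 with TMM, and the share of calls that were higher to 82.5% and 78.4%, against 51.7% and 53.5%. The directions of the members that passed in these comparisons were the same on that scale. The summed level of 6 endothelial markers was 554.5 to 649 CPM in adult soleus against 354.0 to 524.6 CPM in adult gastrocnemius, and 605 to 812 CPM in adult vastus intermedius against 269 to 441 CPM in adult vastus lateralis, with no overlap in either pair, and its part in the member values was not tested.

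The shank and thigh differences were themselves compared in adults. The soleus minus gastrocnemius difference was below the vastus intermedius minus vastus lateralis difference for Myh4 (by -7.11 ± 0.74, adjusted p = 1.34e-06), Myh2 (-5.36 ± 0.55, adjusted p = 1.34e-06) and Myh1 (-4.45 ± 0.82, adjusted p = 0.00125), and above it for Myh8 (1.445 ± 0.40, adjusted p = 0.0247). These were 4 of 6 members, with a background of 8.1% of 14304 genes (1.94% higher and 6.16% lower). The Myh8 value did not pass without adult collection A, B or F (1.35, 1.34 and 1.01) or with the collection as a block (1.33, adjusted p = 0.0562). Myh13 passed without adult collection E (-3.74, adjusted p = 0.00633) and with DESeq2. Of the fast-biased muscles, adult gastrocnemius held the more Myh2 and Myh1, and of the slow-biased muscles, adult soleus held the less Myh4.

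**Figure D3:**
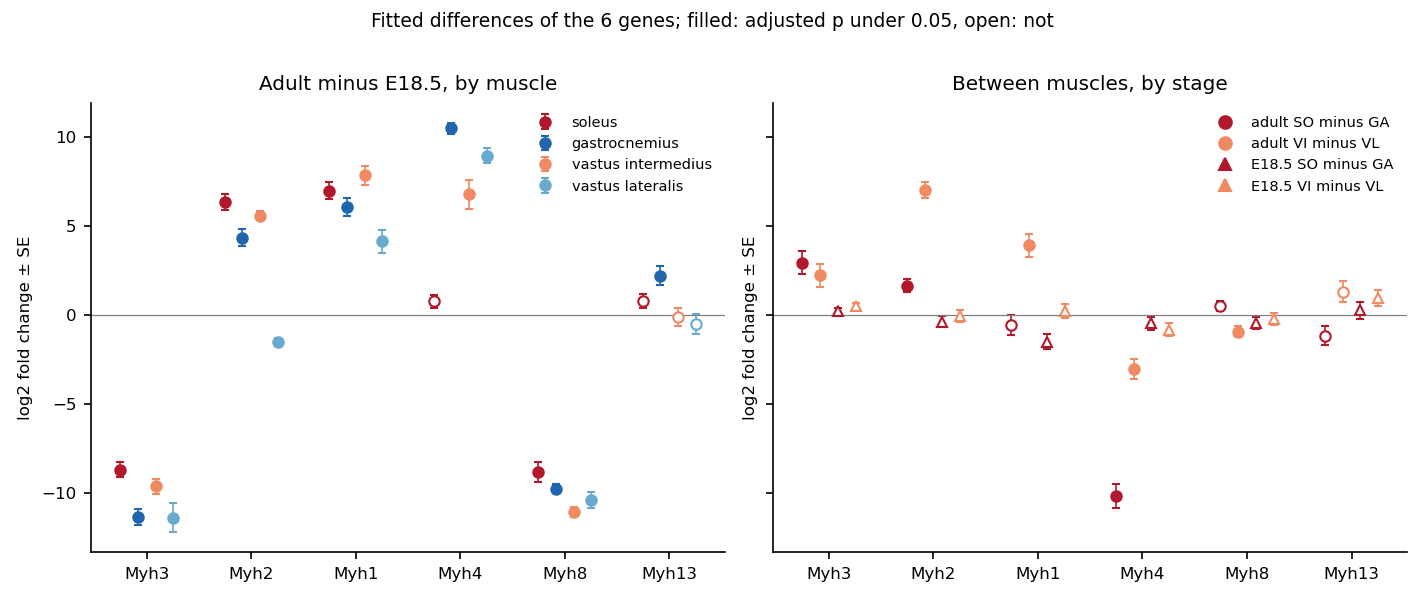
Fitted log2 fold changes of the 6 genes with their SE, adult minus E18.5 by muscle (left panel) and between muscles of a pair by stage (right panel). Filled symbols have an adjusted p under 0.05. In the right panel adult Myh4 lies at -10.14 (shank) and -3.03 (thigh), while the E18.5 values of all members lie between -1.49 and 0.94 and are open.

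Before birth no member passed between the muscles of either pair. In the E18.5 shank 0 of 6 members passed, with a background of 0.286% of 15751 genes (0.0952% higher and 0.19% lower). Of the members, Myh1 had the largest difference there, -1.49 ± 0.40 (adjusted p = 0.121, edgeR), and was lower in soleus in 6 of 6 collections. Its levels were 15.2, 14.99, 17.8, 39.98, 46.5 and 17.7 CPM in E18.5 soleus and 62.4, 45.7, 80.6, 105, 77.7 and 51.8 CPM in E18.5 gastrocnemius of collections A to F, and only the soleus library of collection E exceeded the lowest gastrocnemius one. Myh1 passed with the collection as a block (-1.56, adjusted p = 0.00876), with DESeq2 (-1.48, adjusted p = 0.0458) and without the E18.5 thigh libraries of B and F (-1.48, adjusted p = 0.0418). The other members differed by between -0.47 ± 0.36 (Myh4) and 0.26 ± 0.49 (Myh13). Those values average unlike collections. Soleus minus gastrocnemius log2 differences in A, B and F were -1.46, -1.43 and -1.38 for Myh8. They were -1.38, -1.67 and -1.15 for Myh4 and -1.38, -1.27 and -1.22 for Myh2. In C, D and E they were 0.06, -0.20 and 0.16 for Myh8. There they were 0.06, -0.16 and 0.03 for Myh4 and -0.05, -0.02 and 0.20 for Myh2. Myh3 and Myh13 overlapped between these sets of collections. In the E18.5 thigh 0 of 6 passed, with a background of 0.0317% (0.00635% higher and 0.0254% lower). At an unadjusted p under 0.05, Myh1 was the 1 member in the shank, and Myh3 (0.51 ± 0.15) and Myh4 (-0.84 ± 0.36) the 2 members in the thigh, where DESeq2 also called none. Without the thigh libraries of B and F, Myh3 was the 1 member past the threshold (0.81, adjusted p = 0.0178). Those libraries were left out after the data were seen, and Myh3 itself went against the other collections in them. That value is therefore a description and no test.

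Those thigh values rest on libraries whose slow-fibre genes go against their labels, and the fast and developmental genes of the cluster moved with them in collection B. There Myh4 was 244 CPM in the library labelled E18.5 vastus intermedius and 121 CPM in the one labelled E18.5 vastus lateralis, against 130 and 256 CPM in A, 141 and 403 CPM in C, 127 and 277 CPM in D, and 223 and 493.1 CPM in E. Myh8 was 18930 CPM in the library labelled vastus intermedius and 9887 CPM in the one labelled vastus lateralis in B, and was higher in vastus lateralis in the other 5 collections. Collection F, with 106 and 186 CPM of Myh4, had the direction of A, C, D and E for Myh4, Myh8 and Myh2, and went against them, as B did, for Myh3, Myh1 and Myh13, with log2 differences of -0.03, -0.98 and -0.94. So Myh4, Myh8 and Myh2 were lower in vastus intermedius in 5 of 6 collections each, with collection B the exception, and Myh3, Myh1 and Myh13 were higher in 4 of 6, with B and F the exceptions.

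Adult and E18.5 libraries were compared within each muscle to follow the switch from developmental to adult genes. Stage and collection date cannot be told apart in this design, and other tissue moved with stage. The summed level of 6 fibroblast markers, all detected in every library, was 965 to 3155 CPM in adult libraries and 10529 to 24486 CPM in E18.5 libraries. The part of this change in tissue makeup in the member values was not tested. Myh3 and Myh8 fell in all 4 muscles. Myh3 changed by -8.67 ± 0.43 in soleus, -11.33 ± 0.45 in gastrocnemius, -9.61 ± 0.42 in vastus intermedius and -11.35 ± 0.81 in vastus lateralis. Myh8 changed by -8.82 ± 0.57 in soleus, -9.75 ± 0.25 in gastrocnemius, -11.06 ± 0.29 in vastus intermedius and -10.37 ± 0.43 in vastus lateralis. All of these had adjusted p of 4.63e-09 or below.

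The adult genes rose in most muscles but not in all. Myh1 rose in soleus (6.97 ± 0.47), vastus intermedius (7.82 ± 0.55), gastrocnemius (6.06 ± 0.52) and vastus lateralis (4.13 ± 0.63). Myh2 rose in soleus (6.34 ± 0.46), vastus intermedius (5.57 ± 0.24) and gastrocnemius (4.34 ± 0.49), and fell in vastus lateralis by 1.52 ± 0.20 on the log2 scale (adjusted p = 5.74e-06). Its adult vastus lateralis libraries, at 102 to 232 CPM, all lay below the E18.5 ones at 302 to 566 CPM. Myh4 rose in gastrocnemius (10.46 ± 0.31), vastus lateralis (8.94 ± 0.42) and vastus intermedius (6.76 ± 0.80), but its change in soleus, 0.76 ± 0.37, did not pass (adjusted p = 0.0751). Adult soleus held 73.9 to 157 CPM of Myh4 and E18.5 soleus 21.4 to 111 CPM, and the value passed without E18.5 collection E (1.07, adjusted p = 0.0129). Myh13 rose in gastrocnemius (2.21 ± 0.54, adjusted p = 0.00129), where adult libraries held 0.419 to 5.34 CPM and E18.5 libraries 0.169 to 1.30 CPM. In all, members that passed numbered 4 of 6 for soleus (2 higher and 2 lower), 5 for vastus intermedius (3 and 2), 6 for gastrocnemius (4 and 2) and 5 for vastus lateralis (2 and 3), with backgrounds of 76%, 76.1%, 82.2% and 79% of the genes tested. The genes that rose were 36.3%, 36.9%, 38.2% and 36.4% and those that fell 39.7%, 39.2%, 44% and 42.6%, in the same order of muscles. On total counts the median of all genes moved to -0.75 (soleus), -0.80 (vastus intermedius), -1.21 (gastrocnemius) and -1.20 (vastus lateralis), against -0.06, -0.04, -0.12 and -0.15 with TMM, and 23.4%, 21.4%, 18.2% and 16.6% of calls were higher, against 47.8%, 48.5%, 46.5% and 46.0%. On that scale Myh13 was no longer called in gastrocnemius (1.11, adjusted p = 0.0559) and was called lower in vastus lateralis (-1.53, adjusted p = 0.0174).

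Whether the muscle differences changed with stage was tested over all 47 libraries. In the shank, the adult difference exceeded the E18.5 one for Myh3 (2.65 ± 0.62) and Myh2 (1.99 ± 0.51) and was below it for Myh4 (-9.71 ± 0.73, adjusted p = 3.94e-14), which is 3 of 6 members with a background of 38.5% of 16402 genes (20% lower and the rest higher). In the thigh it was above for Myh2 (7.04 ± 0.56), Myh1 (3.66 ± 0.74) and Myh3 (1.70 ± 0.64, adjusted p = 0.0338) and below for Myh4 (-2.21 ± 0.65, adjusted p = 0.00639), 4 of 6 members with a background of 35.4% (18.1% higher and 17.3% lower). The Myh3 thigh value did not pass without the E18.5 thigh libraries of B and F (1.40, adjusted p = 0.135), with DESeq2 (adjusted p = 0.102), or without any one of adult collections B, C, D and E and E18.5 collections A, B, E and F, where it was 1.21 to 1.73. Myh8 in the shank, 0.92 ± 0.45 (adjusted p = 0.102), passed with the collection as a block (1.07, adjusted p = 0.0338), on total counts (1.35, adjusted p = 0.00678) and without adult collection D (1.17, adjusted p = 0.0491).

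Of the developmental genes, Myh3 was the one higher in the adult slow-biased muscle of both pairs. Muscle spindles keep Myh3 in adult rodents, and regenerating fibres switch it on again. The summed level of 6 spindle markers was 28.04 to 40.2 CPM in adult soleus and 22.5 to 39.2 CPM in adult gastrocnemius, and 20.6 to 32.9 CPM in adult vastus intermedius and 26.3 to 34.9 CPM in adult vastus lateralis. The summed level of 8 markers of satellite cells and regenerating fibres was 60.4 to 97.3 CPM in adult soleus and 81.7 to 110 CPM in adult gastrocnemius, and 63.7 to 87.0 CPM in adult vastus intermedius and 89.7 to 120 CPM in adult vastus lateralis. Of these genes, the fusion factors Mymx and Mymk were at 0 counts in 16 and 2 of 23 adult libraries, and the spindle factor Egr3 in 1. The spindle sums overlapped within both pairs. The satellite and regenerating sums were lower in adult vastus intermedius than in adult vastus lateralis with no overlap. Myod1 had the highest median of these 8 markers in adult libraries, 33.7 CPM (4.91 to 72.0 CPM). It is also one of the regulators of the cluster read below, and its part in the sums was not tested. The part of spindles, satellite cells and regenerating fibres in the Myh3 values was not tested either.

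**Figure D4:**
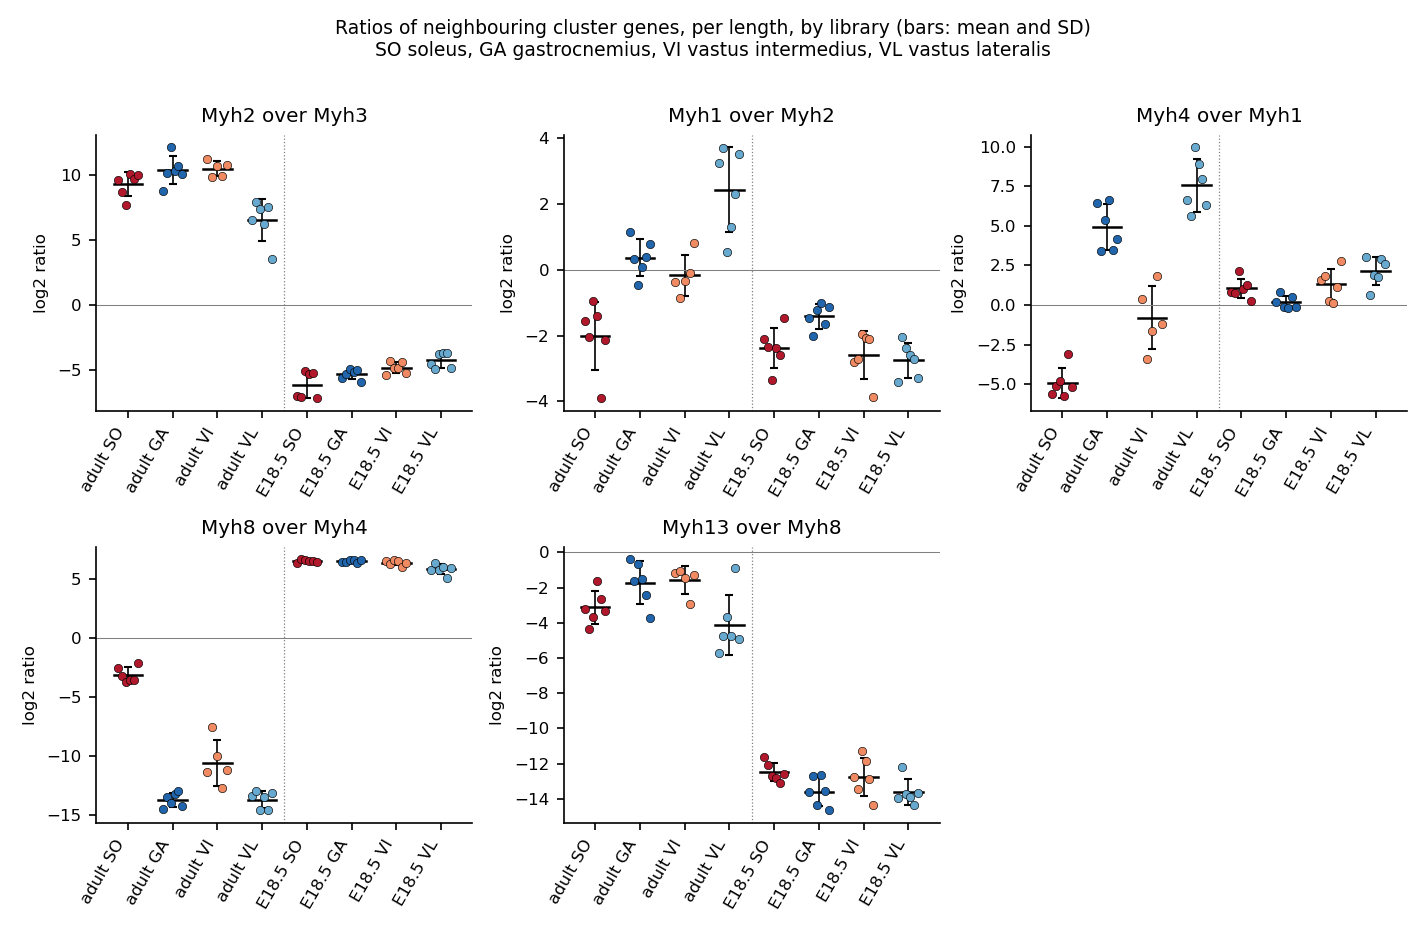
Ratios between neighbouring genes of the cluster in map order, on the log2 scale per exon length, by library. The x axis holds the 8 groups of stage and muscle, points are libraries, and lines with error bars are the group mean and SD. The Myh8 over Myh4 ratio lies between 5.11 and 6.66 in all E18.5 libraries and between -14.58 and -2.07 in adult ones.

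Ratios between neighbouring genes do not depend on the scaling of a library. Each ratio was formed per exon length of the count table after adding 0.5 to each count, and its mean log2 was compared by two-sided exact permutation, 5 ratios in 8 comparisons. Of these 40 tests, 30 passed an adjusted p of 0.05. They were 18 of 20 between stages, 8 of 10 between adult muscles and 4 of 10 between E18.5 muscles. Groups did not overlap in 24 tests, 18 between stages, 6 between adult muscles and 0 between E18.5 muscles. Of single genes 76% to 82.2% passed with age, and no share over other pairs of genes was computed. Myh2 over Myh3, the step from embryonic to adult gene, averaged 9.29 ± 0.93 in adult soleus and -6.15 ± 1.02 in E18.5 soleus, and 6.52 ± 1.61 in adult vastus lateralis and -4.25 ± 0.59 in E18.5 vastus lateralis (log2, SD, n = 6 each; exact adjusted p = 0.00361 for both). Vastus lateralis had the smallest change of this ratio with age of the 4 muscles.

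Myh1 over Myh2 set the IIx gene against its IIa neighbour. It averaged -2.0002 ± 1.03 in adult soleus and 0.38 ± 0.55 in adult gastrocnemius, a difference of -2.38 with no overlap (exact adjusted p = 0.00361, n = 6 each). It averaged -0.16 ± 0.62 in adult vastus intermedius (n = 5) and 2.44 ± 1.29 in adult vastus lateralis (n = 6), with overlap (exact adjusted p = 0.0133). At E18.5 it was -2.37 ± 0.62 in soleus and -1.41 ± 0.37 in gastrocnemius (exact adjusted p = 0.0133, n = 6 each). The ratio in adult soleus differed from that in E18.5 soleus by 0.37 (exact adjusted p = 0.497, n = 6 each). Both genes had risen there, as given above. Each of the other 3 muscles shifted to Myh1 with age with no overlap, by 1.79 in gastrocnemius, 2.42 in vastus intermedius and 5.18 in vastus lateralis.

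Myh4 over Myh1, which sets IIb against IIx, had the widest spread in adults. In linear terms it was 0.0188 to 0.119 in adult soleus, 0.0936 to 3.61 in adult vastus intermedius, 10.7 to 99.4 in adult gastrocnemius and 49.8 to 998 in adult vastus lateralis. At E18.5 it stayed between 0.869 and 8.15 in all libraries. With age it fell in soleus by 5.98 on the log2 scale and rose in gastrocnemius by 4.74 and in vastus lateralis by 5.43 (exact adjusted p = 0.00361 each, n = 6 each). In vastus intermedius it differed by -2.10 with overlap (exact adjusted p = 0.0785, n = 5 and 6), and it passed without adult collection E (-2.77, exact adjusted p = 0.0204). Between E18.5 soleus and E18.5 gastrocnemius it averaged 1.05 ± 0.62 and 0.18 ± 0.42 (exact adjusted p = 0.0216, n = 6 each), a difference that did not pass without E18.5 collection A, C or D. The E18.5 thigh difference, -0.84 with all collections (exact adjusted p = 0.161), was -1.61 without B and F (exact adjusted p = 0.0369). Those libraries were left out after the data were seen, so the second value is a description and no test.

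Myh8 over Myh4 had the smallest SD of the 5 ratios in each of the 4 E18.5 muscles. In linear terms the 6 libraries held 84.2 to 101 in E18.5 soleus, 82.95 to 101 in E18.5 gastrocnemius, 66.8 to 96.6 in E18.5 vastus intermedius and 34.5 to 80.1 in E18.5 vastus lateralis. The ratio in soleus thus varied by less than 1.5 times while the level of Myh8 ranged from 1879 to 10291 CPM. Its log2 difference between E18.5 soleus and gastrocnemius was 0.00256 (exact adjusted p = 0.965, n = 6 each), with SDs of 0.10 and 0.11. In the E18.5 thigh it was 0.55 higher in vastus intermedius (exact adjusted p = 0.016, n = 6 each), which did not pass without E18.5 collection A, C or F, or without the libraries of B and F (0.74, exact adjusted p = 0.0688). Myh4 and Myh8 share 9.85% of the 50-base words of Myh4, and the part of shared reads in the low Myh4 counts of E18.5 libraries was not tested. In adults the ratio was below 1 in all 23 libraries, from 4.08e-05 in a vastus lateralis library to 0.238 in a soleus library. Myh13 over Myh8 changed between the stages in all 4 muscles with no overlap. It also passed, with overlap, between E18.5 soleus and gastrocnemius (1.12, exact adjusted p = 0.0299). In the adult thigh it passed with overlap as well (2.54, exact adjusted p = 0.0317). On the Myh13 side this ratio rests on few counts.

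**Figure D5:**
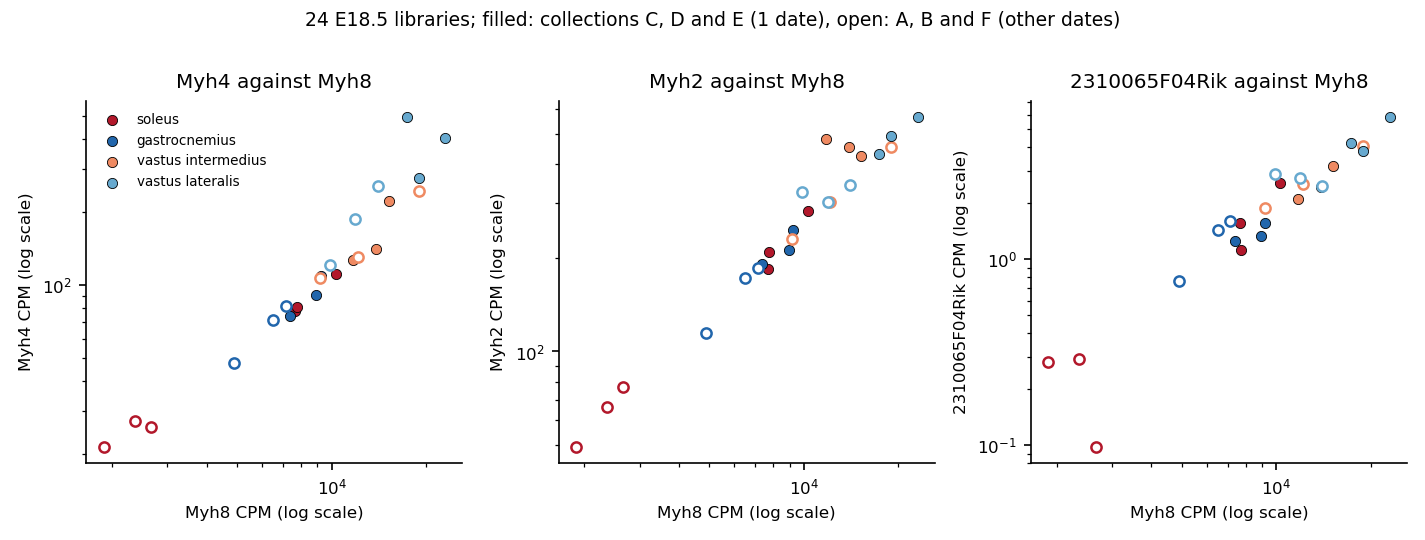
Levels of Myh4, Myh2 and linc-Myh (2310065F04Rik) against Myh8 in the 24 E18.5 libraries, in CPM on log axes. Colours are muscles, filled points are collections C, D and E, which share 1 date, and open points are A, B and F. Soleus libraries of C, D and E lie at 7672 to 10291 CPM of Myh8 and those of A, B and F at 1879 to 2663 CPM.

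Levels of the members were also set against each other between animals, within 1 muscle and stage. Pearson and Spearman correlations of log2 CPM were computed for 129 pairs among the 6 genes and Myh7, in the 7 groups with 6 libraries, for genes that averaged at least 1 CPM in the group. Pearson p was under 0.05 for 23 pairs and Spearman p for 15, by exact permutation over 720 pairings, and 0 of either passed after adjustment over all pairs (smallest adjusted p 0.0597). In E18.5 gastrocnemius Myh4 and Myh8 had r = 0.970 and rho = 0.943 (exact p = 0.00278 and 0.0167, adjusted p = 0.0717, n = 6), and r = 0.884 without the 2 libraries farthest from the median. In E18.5 vastus intermedius they had r = 0.931 and rho = 1 (exact p = 0.00139 and 0.00278, adjusted p = 0.0597, n = 6), and 0.998 without the 2. In E18.5 vastus lateralis they had r = 0.868 and rho = 0.829 (exact p = 0.0278 and 0.0583, adjusted p = 0.221, n = 6), and 0.946 without the 2. Without B and F, 4 libraries of each thigh muscle remain, and r of Myh4 and Myh8, given with no test, was 0.887 in E18.5 vastus intermedius and 0.464 in E18.5 vastus lateralis.

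Myh2 was compared with Myh8 in the same way. In E18.5 gastrocnemius they had r = 0.979 and rho = 1 (exact p = 0.00139 and 0.00278, adjusted p = 0.0597, n = 6), and 0.995 without the 2 libraries farthest from the median. In E18.5 vastus lateralis they had r = 0.941 and rho = 0.943 (exact p = 0.00972 and 0.0167, adjusted p = 0.125, n = 6), and 0.828 without the 2. In E18.5 vastus intermedius r was 0.721 and rho 0.371 (exact p = 0.113 and 0.497, adjusted p = 0.432, n = 6) and turned to -0.485 without the 2, so it rests on those libraries. Without B and F (4 libraries, no test) r of Myh2 and Myh8 was 0.228 in E18.5 vastus intermedius and 0.992 in E18.5 vastus lateralis. Myh3, the other developmental gene, had weaker correlations with Myh8. Their r was 0.160 in E18.5 gastrocnemius, -0.157 in E18.5 vastus intermedius and -0.680 in E18.5 vastus lateralis (exact p = 0.775, 0.756 and 0.139, adjusted p = 0.851, 0.851 and 0.484; rho 0.0857, -0.0857 and -0.771, exact p = 0.919, 0.919 and 0.103; n = 6 each). Without the 2 libraries r was 0.925, -0.120 and -0.606, and without B and F it was -0.766 in E18.5 vastus intermedius and -0.0107 in E18.5 vastus lateralis. In adult vastus lateralis, where both are low, Myh2 and Myh8 had values of the same kind (r = 0.866, rho = 0.943, exact p = 0.00972 and 0.0167, adjusted p = 0.125, n = 6; 0.959 without the 2).

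E18.5 soleus fell into 2 sets of libraries, and no correlation is given for it. Collections C, D and E, which share 1 date, held 7672, 7750 and 10291 CPM of Myh8, and A, B and F held 2357, 2663 and 1879 CPM. Myh4 was 77.7, 81.4 and 111 CPM in C, D and E and 27.4, 25.8 and 21.4 CPM in A, B and F, and Myh2 was 184, 209 and 283 CPM in C, D and E and 66.2, 76.9 and 49.3 CPM in A, B and F. Myh3 overlapped between the sets, at 6270 to 10496 CPM in C, D and E and 6955 to 10319 CPM in A, B and F. The same collections were the higher ones for Myh8 and Myh2 with no overlap in E18.5 gastrocnemius and vastus lateralis too. In gastrocnemius Myh8 was 7379 to 9224 CPM in C, D and E and 4892 to 7150 CPM in A, B and F, and in vastus lateralis 17363 to 23013 CPM and 9887 to 13999 CPM. In E18.5 vastus intermedius the sets overlapped for both genes. With 3 libraries of 1 date, no correlation could be formed within it. Other genes also set the soleus libraries of C, D and E apart with no overlap. Myh7 was lower there, at 444 to 833 CPM in C, D and E and 969.6 to 2300 CPM in A, B and F. Of the general muscle genes, Acta1 was 8545 to 13222 CPM in C, D and E and 3844 to 6698 CPM in A, B and F, Ckm 1428 to 2152 CPM and 692.5 to 1178 CPM, and Des 1129 to 1649 CPM and 683 to 1017 CPM. Summed endothelial markers were lower, at 429 to 491 CPM in C, D and E and 498 to 647 CPM in A, B and F. General muscle genes also set the E18.5 vastus lateralis libraries of C, D and E apart with no overlap. Acta1 was 15537 to 19608 CPM in C, D and E and 10374 to 12004 CPM in A, B and F. Ckm was 3047 to 3510 CPM and 2112 to 2409 CPM, and Des 1784 to 2274 CPM and 1389 to 1564 CPM. Summed endothelial markers were higher there, at 545 to 630 CPM and 414 to 530 CPM. Acta1, Ckm and Des overlapped between the sets in E18.5 gastrocnemius and vastus intermedius. Summed fibroblast markers were higher in C, D and E of E18.5 gastrocnemius with no overlap. They were 15362 to 19133 CPM there and 12629 to 14324 CPM in A, B and F. Its leukocyte sums were also higher, at 59.3 to 67.8 CPM and 52.0 to 58.3 CPM. Leukocyte sums in E18.5 soleus and erythroid sums in both E18.5 vastus muscles were lower in C, D and E with no overlap. Marker sums not named here overlapped. Date moved with these levels, and its part in them and that of tissue makeup were not tested. Nor was the part of either in the correlations given above for the other E18.5 muscles.

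Adult gastrocnemius also had libraries apart. Collections A and D held 748 and 1030 CPM of Myh2 and 1635 and 1086 CPM of Myh1, and the other 4 held 3814 to 7113 CPM of Myh2 and 3285 to 8789 CPM of Myh1. Myh7 was lowest in the same 2 libraries, at 28.4 and 15.2 CPM, against 721 to 1467 CPM in the other 4. The level of Myh4 did not set them apart, at 145557 and 107950 CPM in A and D and 84926 to 135595 CPM in the other 4. Its share of the summed cluster did, at 98.4% and 98.1% in A and D and 85.6% to 94.5% in the other 4. Adult vastus intermedius, with 5 libraries, was too small for a correlation. Its Myh4 levels of 52395, 14949, 12838, 5877 and 1069 CPM in collections E, A, F, D and C stood beside 144, 58.0, 87.3, 43.9 and 13.6 CPM of linc-Myh and 3004, 5076, 3168, 7346 and 10859 CPM of Myh7. The libraries with the most Myh4 were thus those with more linc-Myh and less Myh7, apart from the order of A and F.

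The genes whose levels most resembled a member were ranked by Pearson r of log2 CPM among 16396 genes, over the 23 adult libraries for Myh2, Myh1, Myh4 and Myh13 and over the 24 E18.5 libraries for Myh3 and Myh8. The libraries come from 4 muscles, so an adult r can largely describe the order of the muscles. At E18.5 no step of Myh3 between muscles passed, and Myh8 varied between libraries of a muscle and with date. An r there can therefore describe differences between libraries or dates as well. Each r is given with no test. Nearest to Myh2 were Smtnl1 (0.984), Ankrd2 (0.983), a stretch response gene and one of the slow-fibre partners, and Wnt16 (0.983). Nearest to Myh1 were Pdhb (0.896), a subunit of the pyruvate dehydrogenase complex, Abhd5 (0.894), a coactivator of fat breakdown, and Oxnad1 (0.893). Nearest to Myh4 were Mdga1 (0.993), a gene without a symbol (0.992) and Tspan8 (0.990), and linc-Myh ranked 11 (0.984). Myh13 had no close match (Mex3c, 0.626). Nearest to Myh8 at E18.5 were Myoz1 (0.985), a fast Z-disc protein, Casq1 (0.982), the calcium store protein of fast fibres, and Speg (0.976), with linc-Myh at 0.958. Nearest to Myh3 were Nt5c2 (0.929), Ube2g2 (0.860) and Nnt (0.859), genes of general metabolism and protein turnover, and linc-Myh had an r of 0.0270.

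Other genes of fast and slow fibres were read from lists chosen for their known roles. Of 14 partners of fast fibres, 14 were lower in adult soleus than in adult gastrocnemius (median log2 fold change -3.07, all genes 0.08), led by Actn3, the fast alpha-actinin (-9.37), Mss51 (-8.50) and Pvalb, a calcium buffer (-7.59). In the adult thigh 13 of 14 were lower in vastus intermedius, with a median of -1.89 against 0.07 over all genes, led by Mss51 (-3.89). Of 12 partners of slow fibres, 12 were higher in both slow-biased muscles, with medians of 4.44 (shank) and 9.85 (thigh), led by Sln, a calcium pump inhibitor (6.66 in the shank), and Myl3, a slow light chain (12.57 in the thigh). The shares of all genes called were 27.7% higher and 25.9% lower in the shank and 27.9% higher and 24.3% lower in the thigh. At E18.5 no gene of these lists passed in either pair, where 0.286% of all genes passed in the shank and 0.0317% in the thigh. With DESeq2 or with the collection as a block, none passed either. Without the thigh libraries of B and F, 1.4% of all genes passed in the thigh, and 9 of the 12 slow partners were called higher in vastus intermedius, led by Myl3 (4.23) and Myl2 (4.22), as was Myh7 (3.94). Those libraries were left out for the direction of these same genes, so that count is a description and no test. Of the 14 fast partners none was called without them. With age, 14 of 14 fast partners rose in gastrocnemius, 13 in vastus lateralis, 12 in vastus intermedius (9, with 1 that fell, on total counts) and 9 in soleus, where 2 fell, beside 36.3% to 38.2% of all genes that rose. Of 8 developmental partners, 8 fell in soleus, gastrocnemius and vastus intermedius and 7 in vastus lateralis, where 1 rose, beside 39.2% to 44% of all genes that fell. Chrng, the fetal acetylcholine receptor subunit, had the largest fall of them in gastrocnemius (-8.75), vastus lateralis (-8.86) and vastus intermedius (-7.00), and Actc1, the cardiac actin of developing fibres, in soleus (-7.56).

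Of 24 known regulators of the cluster, 8 were higher and 11 lower in adult soleus than in adult gastrocnemius, with a median of -0.19 against 0.08 over all genes, which themselves were called higher in 27.7% and lower in 25.9%. That median turned to 0.19 on total counts, with 11 higher and 7 lower, where 52.7% of all genes were higher and 11.2% lower. The largest changes were in linc-Myh (-5.23), Mafa (-3.79), a large Maf factor tied to the IIb program in mouse, and Prox1 (3.63), a factor of slow fibres. In the adult thigh 7 were higher and 12 lower in vastus intermedius (27.9% and 24.3% of all genes), led by Prox1 (3.51), Vgll2 (3.48), a TEAD cofactor, and Mafa (-2.85). With age 15 to 17 of the 24 rose and 6 or 7 fell in each muscle, beside 36.3% to 38.2% and 39.2% to 44% of all genes. On total counts 10 to 12 rose and 8 or 9 fell, beside 14.3% to 18.9% and 62% to 72.6% of all genes. The largest were Nr4a3, an orphan nuclear receptor (5.83 in soleus and 6.22 in vastus intermedius), and linc-Myh (7.35 in gastrocnemius and 6.09 in vastus lateralis). linc-Myh averaged 5.70 CPM in adult soleus, 69.4 in adult vastus intermedius, 219 in adult gastrocnemius and 253 in adult vastus lateralis, and 0.99 to 3.65 CPM in the E18.5 muscles. Its order over the adult muscles is that of Myh4. Of the genes that flank the cluster 4 of 5 were tested, and none of them was lower in an adult slow-biased muscle. Gas7 was higher in both pairs (1.16 for the shank, 0.83 for the thigh) and Sco1 in the thigh (0.88), and 3 or 4 of the 4 fell with age in each muscle, where 39.2% to 44% of all genes fell.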

How the data were processed

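Messenger RNA libraries were made from 4 hindlimb muscles of 6 adult and 6 E18.5 male mice with random-primed cDNA, per the labels. The authors deposited raw read counts per gene with no normalization. The submitters' processing notes name, with no role or order, STAR 2.7.11, featureCounts (Subread 2.0.6), FastQC 0.11.5, Trimmomatic 0.39.0, DESeq2 1.44.0 and the build mm10. The sources used here do not give the annotation, the strand setting or the treatment of reads with several matches. The deposited comparison tables of the authors were used only to pair identifiers with symbols (18780 genes, with 6501 more from RefSeq and 1898 without one).

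Counts were fitted with edgeR 4.0.16 (R 4.3.3; TMM, filterByExpr, quasi-likelihood F tests, Benjamini-Hochberg over all genes tested, threshold 0.05), with muscle as 4 levels in 1 fit per stage, 8 groups in 1 fit for changes between stages, and 1 fit per muscle for adult against E18.5. The SE of a log2 fold change was taken from its F value. CPM are TMM-scaled, and log2 CPM have a prior count of 2. Ratios and single values were tested by exact permutation (Python 3.11.15, scipy 1.17.1). Levels per kb use the exon length that the authors deposited beside the counts. Coding sequences are from GENCODE M21 and promoters from RefSeq, both on GRCm38.p6, read with Biopython 1.88. The planned comparison of proteins was replaced by coding sequences because no protein table was used here. The scripts were tested on simulated data.

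Columns of the count table carry the stage, the muscle and a tag with a date, and no animal number, so each tag was taken as 1 animal, since the labels say that all 4 muscles came from the same mice. After subtracting group means, log2 CPM correlated within a tag by 0.0667 on average in adults and 0.129 at E18.5, against -0.0134 and -0.0258 between tags. E18.5 tags C, D and E share 1 date and adult D and E another, and date was not modelled. All pairs of libraries of 1 group differed by more than sampling noise (lowest chi-square per degree of freedom 10.8). The floors cover counting error only, whereas each SD and SE also holds the spread between libraries. The members, the lists and the tests were chosen with earlier results of these data known. Named were the 6 members, Myh7, the 3 largest called changes of each list, and the 3 genes most like each member, from which the text gives a selection. Alternatives were DESeq2 1.42.0, other scalings, no low-count filter, a block for the collection, other added counts, the left-out library included, each animal left out in turn and, added after seeing the data, the E18.5 thigh libraries of B and F left out.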

Additional observations from a re-analysis of the deposited data

Results flagged for a closer look

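Of 48 groups of gene, stage and muscle, 5 had 1 library far from the others by Dixon's criterion on CPM. The criterion flags about 1 group in 20 where values are normally spread and groups are independent. CPM can be skewed and the genes share libraries, so that rate need not hold here. Myh3 was 13.1 CPM in adult vastus lateralis of collection F, against 0.576 to 1.90 CPM in the other 5 libraries. Myh1 was 907 CPM in adult soleus of collection E, against 3110 to 4383 CPM in the others. Adult collection E gave 3 more. In its vastus intermedius Myh4 was 52395 CPM, against 1069 to 14949 CPM, and Myh8 was 7.94 CPM, against 5.75 to 6.00 CPM. In its vastus lateralis Myh13 was 2.94 CPM, against 0.179 to 0.622 CPM.

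Differences between muscles that themselves differed were the second kind. The adult shank and thigh differences differed, on the log2 scale, by -5.36 for Myh2, -4.45 for Myh1, -7.11 for Myh4 and 1.445 for Myh8. The adult shank difference differed from that at E18.5 by 2.65 for Myh3, 1.99 for Myh2 and -9.71 for Myh4. The adult thigh difference differed from that at E18.5 by 1.70 for Myh3, 7.04 for Myh2, 3.66 for Myh1 and -2.21 for Myh4. The third kind was the library of collection B that was left out, labelled adult vastus intermedius, which held 8923 CPM of Myh3 and 15578 CPM of Myh8. Its Myh2, Myh1 and Myh4 were 415, 100 and 219 CPM, and its Myh8 over Myh4 ratio of 69.5 lay within the ranges of both E18.5 vastus intermedius and E18.5 vastus lateralis.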

How the results depend on the processing

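Over the alternatives other than leaving out an animal, 351 member values kept their direction and call, 12 newly passed, 10 no longer passed and 5 reversed, and of the ratio values 142 kept them, 3 newly passed and 15 no longer passed. With an animal left out, 581 member values kept them, 9 newly passed, 11 no longer passed and 5 reversed, and of the ratio values 460, 3, 15 and 2 in the same order. The left-out library changed most: with it, 2 members differed between the adult pairs (4 without it), 3 changed with age in vastus intermedius (5 without it) and 7 of the 42 steps in the order of levels passed (13 without it). It turned Myh8 to 7.78 in the adult thigh, to 7.95 for the stage difference of the thigh and to -7.29 for the difference of the adult pairs, and Myh3 to -6.10 for the last. In the E18.5 shank 1 member, Myh1, was called with DESeq2, with the replicate block by collection and without the thigh libraries of B and F. In the E18.5 thigh 1, Myh3, was called without those libraries, which is a description and no test, as given above. Genome-wide the E18.5 shank had 45 calls, 163 with DESeq2 and 101 with the block, and the thigh 5, 21 and 4. With the ratios paired within collections by sign flips, 18 of 40 passed (30 unpaired). With 6 collections the smallest p of that test between muscles is 0.03125. The smallest adjusted p there was 0.0543, so no ratio between muscles passed under it. An adjusted p depends also on how many tests of the family reach a small p. Where there were 6 collections, a pass was therefore hard but not excluded in advance. The adult thigh, with 5 collections, could not pass. The block changed no other count of members called by more than 1.5 times. Other reversals were of values that had not passed. Myh13 was -0.16 for the stage difference of the thigh without B and F, and Myh7 was -0.44 with age in gastrocnemius on total counts. With 1 animal left out at a time, Myh3 ranged from -0.85 to 1.19 for the difference of the adult pairs, Myh13 from -0.00287 to 0.49 in the E18.5 shank and from -0.36 to 0.30 with age in vastus intermedius (0.0630 without adult E), Myh2 from -0.17 to 0.00218 in the E18.5 thigh, and the Myh8 over Myh4 ratio of the E18.5 shank from -0.0463 to 0.0486 (-0.0220 without E18.5 E). The causes of these changes were not tested. Depth limits Myh13, whose lowest library had 3 counts.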
